A study of Mus musculus with 12 samples.

Results

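Expression of 10 genes that move water, salt, calcium and organic cations was examined in the reproductive tracts of Hox mutant mice: the water channels Aqp8, Aqp5, Aqp3 and Aqp1, the peptide gene Guca2b, the chloride channel Cftr, the sodium channel subunits Scnn1a and Scnn1b, the calcium-binding protein S100g and the organic cation exporter Slc47a1. They were chosen by gene symbol, with their uterine values already known, so their differences in the uterus describe these libraries and were not tested. All 10 were found among the 31618 genes of the female libraries and the 31669 genes of the male libraries. The female libraries came from the uterus, in 5 genotypes, and from WT oviduct. The male libraries came from the vas deferens, in these 5 genotypes, and from WT caudal epididymis. Besides wild type (WT) there were 2 single mutants, Hoxa-/- and Hoxd-/-, in which both copies of the Hoxa9, 10 and 11 genes or of the Hoxd9, 10 and 11 genes were mutant, and 2 compound mutants, Hoxa-/-d+/- and Hoxa+/-d-/-, in which 1 copy of the other cluster was mutant as well. Hoxa-/- and Hoxa-/-d+/- are called the Hoxa-null pair, and Hoxd-/- and Hoxa+/-d-/- the Hoxd-null pair. Unless stated otherwise, 4 values in a row belong to Hoxa-/-, Hoxd-/-, Hoxa-/-d+/- and Hoxa+/-d-/-. All mice had a mixed CD1/129 background and were 3 to 7 months old, the females were in diestrus, and each library was made from RNA pooled from 3 animals. What kind of mutation the alleles carry is not described in the labels.

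With 1 library per tissue and genotype there is no spread between replicates, no p-value is given and no order of 2 neighbouring values has a replicate check. Values are log2 differences from WT of the same tissue unless another reference is named, and a difference of at least 1, or 2-fold, is called higher or lower. Because the authors set the median of every gene to 0 within each sex, levels cannot be compared between genes or between the sexes. A library with no more than 1 normalised read for a gene stands at 1, called the floor, and a difference against it depends on where the floor was set, so a bound that allows 3 reads there is given where the result turns on it. In pooled tissue, fewer cells of a type and less RNA per cell cannot be told apart.

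Fluid in the uterine and oviductal lumen and in the male ducts is set by the epithelium, which secretes chloride through CFTR, takes up sodium through the epithelial sodium channel ENaC and lets water follow through aquaporins. Uroguanylin, the product of Guca2b, is a peptide hormone that activates guanylate cyclase C and raises cyclic GMP, and it is best known for salt and water balance in gut and kidney. S100G, also called calbindin-D9k, buffers calcium in epithelial cells and is a classical steroid-responsive gene of the rodent uterus. Hox9 to Hox11 proteins pattern the segments of both tracts.

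The sequence upstream of 4 genes is shown because Aqp8, Guca2b and S100g were lower together in both Hoxd-null uteri and Aqp3 was higher in every mutant uterus. Each line gives the 250 bases before the RefSeq transcription start (GRCm38.p6), 5′ to 3′ on the gene's strand. Capitals mark matches on either strand to TTTAT, the core of motifs bound by posterior Hox proteins, TGATNNAT, a motif of Hox proteins bound with Pbx partners, and GGTCA, the core shared by recognition elements of the oestrogen receptor and other nuclear receptors.
Aqp8, chr7:123462044-123462293, plus strand: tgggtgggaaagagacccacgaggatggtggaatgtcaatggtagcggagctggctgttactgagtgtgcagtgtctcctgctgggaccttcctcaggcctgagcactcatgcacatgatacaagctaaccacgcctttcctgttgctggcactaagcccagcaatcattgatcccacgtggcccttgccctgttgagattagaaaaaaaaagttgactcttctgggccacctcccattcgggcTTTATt
Guca2b, chr4:119658946-119659195, minus strand: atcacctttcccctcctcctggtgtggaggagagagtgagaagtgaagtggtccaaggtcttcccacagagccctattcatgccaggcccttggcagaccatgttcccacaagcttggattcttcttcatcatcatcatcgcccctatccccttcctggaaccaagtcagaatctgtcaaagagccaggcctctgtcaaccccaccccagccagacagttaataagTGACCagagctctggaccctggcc
S100g, chrX:162964600-162964849, minus strand: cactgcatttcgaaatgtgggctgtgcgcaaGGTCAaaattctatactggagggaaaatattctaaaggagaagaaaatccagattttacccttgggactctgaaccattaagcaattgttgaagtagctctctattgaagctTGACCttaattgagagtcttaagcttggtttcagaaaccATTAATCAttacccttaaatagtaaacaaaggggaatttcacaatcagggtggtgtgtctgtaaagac
Aqp3, chr4:41098184-41098433, minus strand: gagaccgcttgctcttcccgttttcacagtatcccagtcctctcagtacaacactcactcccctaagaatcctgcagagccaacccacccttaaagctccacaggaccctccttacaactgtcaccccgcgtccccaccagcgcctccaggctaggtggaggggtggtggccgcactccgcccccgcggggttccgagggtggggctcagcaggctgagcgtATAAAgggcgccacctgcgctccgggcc
Among all 32851 promoters of the table, 37.3% hold TTTAT, 7.68% hold TGATNNAT and 35.2% hold GGTCA in this window, and no matches overlapped in the 4 sequences shown. Aqp8 and Aqp3 have 1 TTTAT each, Guca2b has 1 GGTCA, and S100g has 2 GGTCA and 1 TGATNNAT. None of the 3 motifs was found in all of Aqp8, Guca2b and S100g. Slc47a1, also lower in both Hoxd-null uteri, has no entry. Of the 8 members with an entry, S100g has the window poorest in G and C, with 38.4% G and C beside 52.4% for Aqp8 and a median of 52.4% over all windows. A match describes letters only, and no binding was measured.

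The targeted genes were checked first. Uterine Hoxa11 was at -2.74, 0.03, -3.11 and -1.03. Its vas deferens values were -2.30, -0.16, -3.21 and -0.84, and the Hoxa-null pair was lowest in both tissues. Uterine Hoxd11 was at -0.73, -0.60, -1.35 and -1.58. Its vas deferens values were -0.89, -2.47, -1.46 and -1.18, so that in neither tissue did it separate the Hoxd-null pair from the Hoxa-null pair. The other 4 targeted genes lay within 2-fold of WT in their own null libraries in 13 of 16 values. Because a mutant transcript can still be counted, these values do not check the genotype labels. The recovered depth spanned 1.34-fold among the female and 1.92-fold among the male libraries. The labelled tissues differed in their marker genes, with all 8 ciliated-cell markers higher in the oviduct than in the WT uterus and all 7 smooth muscle markers lower in the epididymis than in the WT vas deferens. Per the file headers, the WT and Hoxa-/- uterus and the WT vas deferens shared run 134, lane 1, and the other uteri shared lane 2 of that run with the Hoxa-/-, Hoxd-/- and Hoxa-/-d+/- vas deferens. The oviduct, the epididymis and the Hoxa+/-d-/- vas deferens were sequenced in run 136.

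Most of the 10 genes lay below WT in the mutant uteri and 1 lay far above it. At 2-fold, 6 of 10 were called in the Hoxa-/- uterus (1 higher, 5 lower), 5 in the Hoxd-/- (1 and 4), 6 in the Hoxa-/-d+/- (1 and 5) and 8 in the Hoxa+/-d-/- uterus (2 and 6). Over all 16785 measured genes the shares called were 13.2%, 12%, 15.5% and 14.3%, and since the genes were picked on these values nothing is read from the excess. The median over the 10 genes was -0.99, -0.85, -0.75 and -1.49 in the same order, while the median over all measured genes lay between -0.0014 and 0.0039. Aqp8, Guca2b, S100g and Slc47a1 separated the Hoxd-null pair from the 3 Hoxd-intact uteri by at least 2-fold at the nearest libraries, as did 0.328% of measured genes in the lower direction. Aqp3 alone of the 10 separated the Hoxa-null pair from the 3 Hoxa-intact uteri, as did 0.977% of measured genes in the higher direction. Leaving out the WT uterus raised the latter count to 5, and leaving out either library of the Hoxa-null pair raised it to 2. A library left out can only make separation easier, for every gene. The share of all measured genes was not counted there, so nothing is read from these 2 counts.

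**Figure D1:**
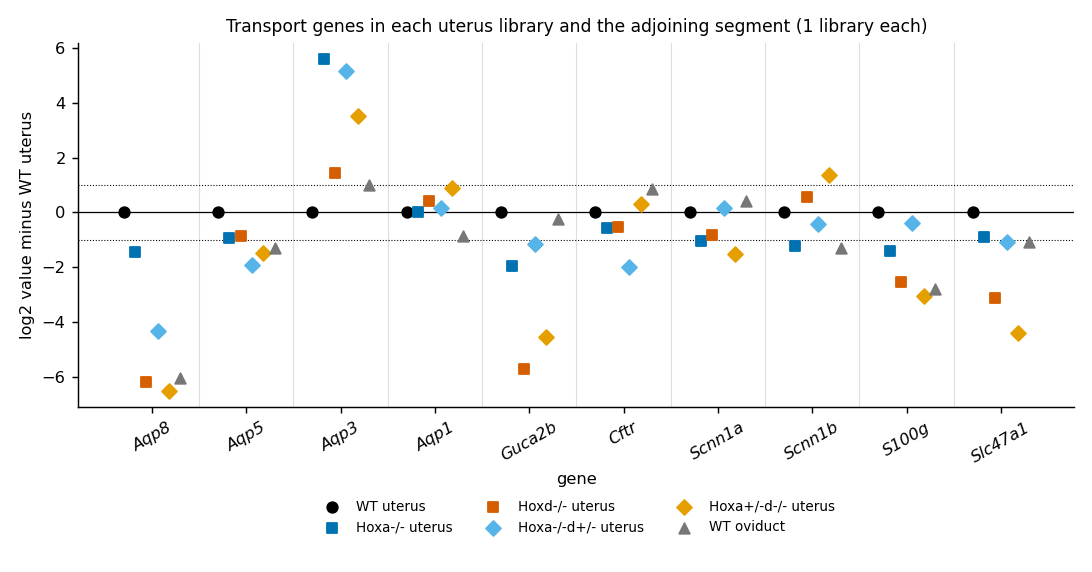
Each point is 1 pooled library, plotted as its log2 value minus the WT uterus for each of the 10 genes. Dotted lines mark 2-fold. Both Hoxd-null libraries (orange square and diamond) lie lowest among the 5 uteri for Aqp8, Guca2b, S100g and Slc47a1, and both Hoxa-null libraries (blue) lie highest for Aqp3.

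Aqp8 (Gene ID 11833, chromosome 7, start 130605826, mm9) encodes a water channel that also passes small solutes such as ammonia. It stood at -1.43 in the Hoxa-/-, -6.19 in the Hoxd-/-, -4.33 in the Hoxa-/-d+/- and -6.50 in the Hoxa+/-d-/- uterus. The WT uterus was therefore the highest of the 6 female libraries, and the Hoxd-null pair lay 73.2-fold and 90.3-fold below it. The oviduct was at -6.04, between the Hoxa-/-d+/- uterus and the Hoxd-null pair. Of the single mutants, the Hoxa-/- uterus was 2.70-fold and the Hoxd-/- 73.2-fold below WT, and 1 mutant Hoxd copy on the Hoxa-/- background went with a further 7.44-fold decrease. The Hoxa+/-d-/- uterus lay 1.23-fold below the Hoxd-/- uterus. The nearest libraries of the Hoxd-null pair and the other 3 uteri were 1.87 log2 units apart.

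Aqp5 (Gene ID 11830, chromosome 15, start 99421459) encodes the water channel of the apical membrane of secretory epithelia. It lay below WT in every other female library, at -0.92 in the Hoxa-/-, -0.88 in the Hoxd-/-, -1.91 in the Hoxa-/-d+/- and -1.47 in the Hoxa+/-d-/- uterus and -1.31 in the oviduct. Both single mutants stayed within 2-fold of WT and both compound mutants did not. The Hoxa-/-d+/- uterus was 1.98-fold below the Hoxa-/- and the Hoxa+/-d-/- 1.51-fold below the Hoxd-/-, neither past 2-fold. The Hoxa-null and Hoxd-null pairs overlapped.

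Aqp3 (Gene ID 11828, chromosome 4, start 41039757) encodes a channel for water and glycerol that is typical of the basolateral membrane of stratified epithelia such as epidermis. It was at 5.59 in the Hoxa-/-, 1.42 in the Hoxd-/-, 5.15 in the Hoxa-/-d+/- and 3.51 in the Hoxa+/-d-/- uterus. The WT uterus was the lowest of the 6 libraries and the oviduct was next, at 0.99. The Hoxa-/- library was thus 48.1-fold above WT and the Hoxd-/- library 2.68-fold. The Hoxa+/-d-/- uterus, with 1 mutant Hoxa copy, was 4.25-fold above the Hoxd-/- uterus, whereas the Hoxa-/-d+/- uterus lay 1.35-fold below the Hoxa-/-. The Hoxa-null pair and the other 3 uteri were 1.64 log2 units apart at their nearest libraries.

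Markers of stratified squamous epithelium moved with Aqp3. Of 12 such markers, 11 were higher in the Hoxa-/-, 3 in the Hoxd-/-, 10 in the Hoxa-/-d+/- and 11 in the Hoxa+/-d-/- uterus, with medians of 5.82, 0.22, 3.83 and 1.77. In the Hoxd-/- uterus 2 of the 12 were lower. General epithelial markers stayed level, with 47 of 48 values over the 4 mutant uteri within 2-fold of WT. The part of the squamous cells in the Aqp3 values was not tested.

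Over the other 5 female libraries, the measured genes whose values lay nearest to those of Aqp3 were Krt15, Ly6d and Col17a1, with root mean square differences of 0.44, 0.67 and 0.69 log2 units. Krt15, a basal-cell keratin, stood at 5.64, 0.94, 5.43 and 2.91. Col17a1, a hemidesmosome collagen of basal keratinocytes, stood at 5.99, 1.57, 5.17 and 3.53. Krt15 and Col17a1 are also among the 12 squamous markers, so the 2 descriptions are not separate evidence.

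**Figure D2:**
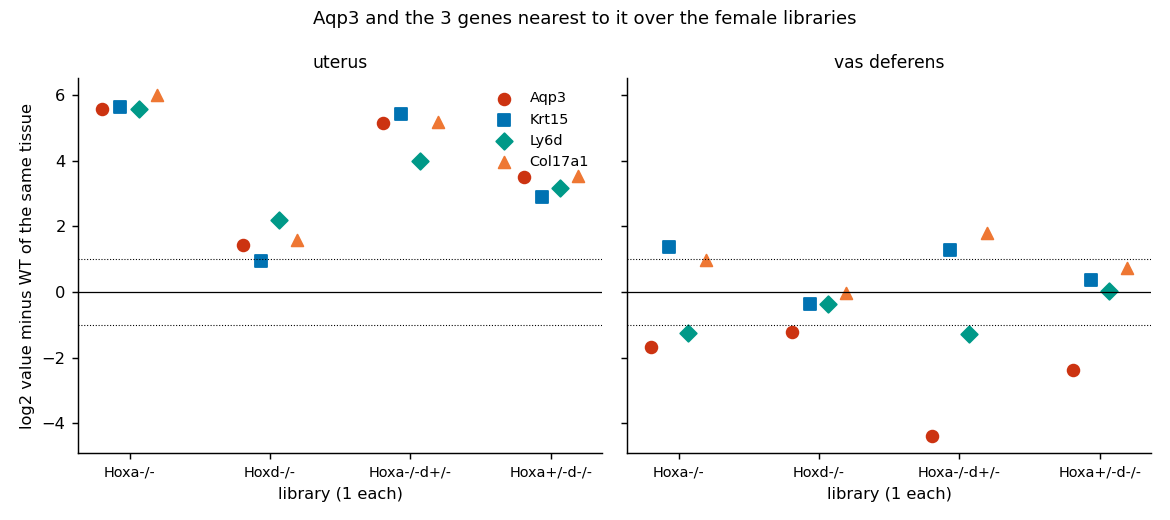
Log2 value minus WT of the same tissue for Aqp3 and the 3 genes nearest to it over the female libraries, 1 point per pooled library, with dotted lines at 2-fold. The 3 genes were picked for closeness to Aqp3 over the female libraries, so their closeness in the uterus was fixed in advance. Values in the mutant uteri run from 0.94 to 5.99. Aqp3 lies below the other 3 in each mutant vas deferens, from -1.23 to -4.38.

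Krt15, Ly6d and Col17a1 were picked for closeness to Aqp3 in the female libraries. Nothing is therefore read from how far apart the 4 genes lay in the male libraries. In the vas deferens Aqp3 was at -1.67 in the Hoxa-/-, -1.23 in the Hoxd-/-, -4.38 in the Hoxa-/-d+/- and -2.37 in the Hoxa+/-d-/- library and at -3.78 in the epididymis. The WT vas deferens was the highest of the 6 male libraries, and each mutant was lower by at least 2.34-fold. Krt15 in the same 4 mutants was at 1.37, -0.37, 1.28 and 0.38 and Col17a1 at 0.98, -0.02, 1.79 and 0.73. Ly6d was at -1.24, -0.36, -1.26 and 0.03. Squamous markers were higher for 2, 0, 5 and 0 of 10 measured and lower for none. In the vas deferens 1 mutant Hoxd copy on the Hoxa-/- background went with a 6.54-fold decrease of Aqp3, beside the 1.35-fold decrease in the uterus.

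Aqp1 (Gene ID 11826, chromosome 6, start 55286293) encodes the water channel of endothelium and red blood cells. It stayed within 2-fold of WT in all 4 mutant uteri, at 0.01, 0.43, 0.15 and 0.90, and was at -0.84 in the oviduct. Endothelial markers were as level, with 47 of 48 values within 2-fold. The red blood cell markers differed from this, since 3 of 4 measured were higher in the Hoxd-/- uterus with a median of 1.42, and none in the other mutant uteri. In the vas deferens Aqp1 was at -0.62, -0.05, -0.62 and -0.58 and fell by 1.21 in the epididymis.

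Guca2b (Gene ID 14916, chromosome 4, start 119329224) was at -1.96 in the Hoxa-/-, -5.70 in the Hoxd-/-, -1.14 in the Hoxa-/-d+/- and -4.56 in the Hoxa+/-d-/- uterus. The Hoxd-null pair lay 51.8-fold and 23.5-fold below WT, the Hoxa-null pair 3.90-fold and 2.21-fold below it. The gap between the pair and the nearest other uterus was the widest among the 10 genes, at 2.59 log2 units. Unlike Aqp8, Guca2b was close to WT uterus in the oviduct, at -0.24. The 1 mutant Hoxa copy of the Hoxa+/-d-/- uterus went with a value 2.201-fold above that of the Hoxd-/- uterus.

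The nearest measured patterns to that of Guca2b were D930016D06Rik, Slc46a2 and Coch, at 0.70, 0.98 and 1.12 root mean square log2 units. Slc46a2, a solute carrier, was at -2.58, -3.83, -0.80 and -3.89. Coch, which encodes an extracellular matrix protein best known from the inner ear, was at -3.33, -4.01, -1.69 and -3.74. Slc46a2 was also among the 3 genes nearest to Slc47a1. D930016D06Rik stood at the floor in both Hoxd-null uteri, at least 12.4-fold and 16.3-fold below WT if 3 reads are allowed there. D930016D06Rik counted as measured through the WT uterus alone, where it is highest, which favours its lower values.

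Cftr (Gene ID 12638, chromosome 6, start 18120687) encodes the cyclic AMP-regulated chloride and bicarbonate channel. It was at -0.57 in the Hoxa-/-, -0.54 in the Hoxd-/-, -1.98 in the Hoxa-/-d+/- and 0.31 in the Hoxa+/-d-/- uterus and 0.84 in the oviduct. Only the Hoxa-/-d+/- uterus passed 2-fold, 3.94-fold below WT and 2.65-fold below the Hoxa-/- uterus. In the vas deferens all 4 mutants were within 2-fold of WT, between -0.69 and 0.37.

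Scnn1a (Gene ID 20276, chromosome 6, start 125271871) and Scnn1b (Gene ID 20277, chromosome 7, start 129008625) encode the alpha and beta subunits of ENaC, which work together with the gamma subunit encoded by Scnn1g. In the uterus the subunits did not move as a unit. Scnn1a was at -1.05, -0.82, 0.16 and -1.51. Scnn1b was at -1.23, 0.57, -0.42 and 1.38. Scnn1g, no member of the 10 and the nearest measured gene before Scnn1b on chromosome 7, was at -1.59, -0.99, 1.07 and 0.85.

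All 3 subunits lay at least 2-fold below WT in the Hoxa-/- uterus, and in the Hoxa+/-d-/- uterus Scnn1a was lower while Scnn1b was higher. The Hoxa-/-d+/- uterus stood above the Hoxa-/- for each subunit, by 1.21 for Scnn1a, 0.81 for Scnn1b and 2.67 for Scnn1g.

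In the vas deferens the 3 subunits lay above WT in each mutant. Scnn1a was at 1.65 in the Hoxa-/-, 0.08 in the Hoxd-/-, 1.28 in the Hoxa-/-d+/- and 1.19 in the Hoxa+/-d-/- library, Scnn1b at 1.22, 0.24, 0.80 and 1.15, and Scnn1g at 1.49, 0.42, 1.59 and 1.05. The Hoxd-/- library was the least changed for all 3. The epididymis was 8.61-fold above the WT vas deferens for Scnn1a, and at 0.43 and 0.46 for Scnn1b and Scnn1g. General epithelial markers in the same mutants had medians of 0.47, 0.17, 0.33 and -0.16, smooth muscle markers -0.89, 0.20, -1.16 and -0.78, and adipocyte markers 2.36, 0.18, 2.64 and 2.28. Their part in the subunits' values was not tested.

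**Figure D3:**
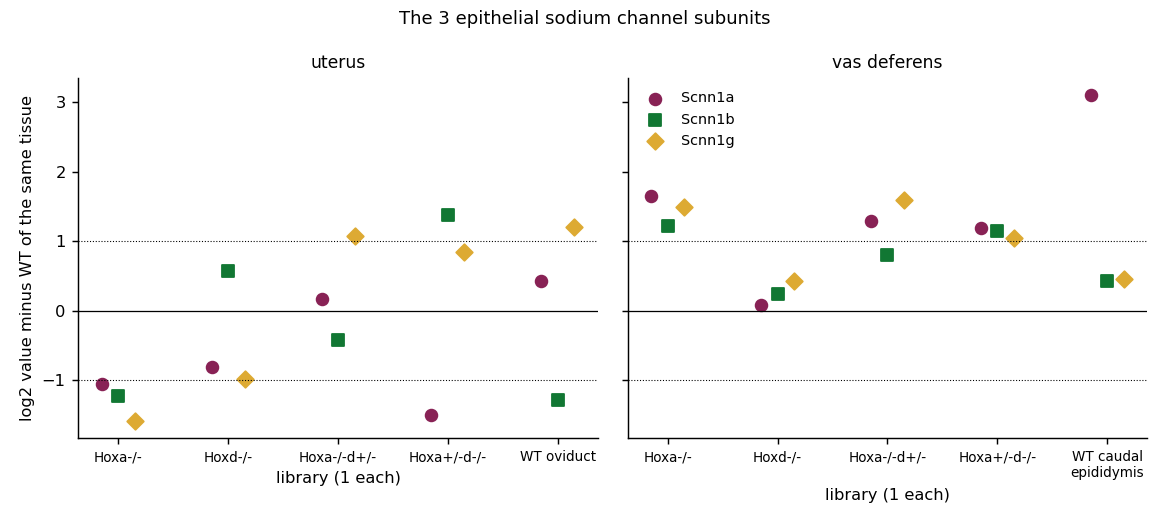
Log2 value minus WT of the same tissue for the 3 ENaC subunit genes, 1 point per pooled library, with dotted lines at 2-fold. In the uterus the subunits spread from -1.59 to 1.38 and change order between libraries, and in the vas deferens and epididymis all 3 lie above 0 in every library.

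S100g (Gene ID 12309, chromosome X, start 159399924) was at -1.40 in the Hoxa-/-, -2.54 in the Hoxd-/-, -0.38 in the Hoxa-/-d+/- and -3.04 in the Hoxa+/-d-/- uterus and at -2.79 in the oviduct. The Hoxd-null pair lay 5.80-fold and 8.22-fold below WT, 1.14 log2 units below the nearest other uterus. The oviduct lay between these 2 libraries. The Hoxa-/-d+/- uterus was 2.03-fold above the Hoxa-/- uterus.

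S100g also separated the Hoxd-null pair in the male tract. The vas deferens held 40 reads in WT, 37 in the Hoxa-/-, 6 in the Hoxd-/-, 39.9 in the Hoxa-/-d+/- and 0 in the Hoxa+/-d-/- library, and the epididymis 16. As differences these were 0.26 and 0.31 in the Hoxa-null pair and -2.26 in the Hoxd-/- library, and the Hoxa+/-d-/- library was at least 7.26-fold below WT if 3 reads are allowed there. The 95% Poisson intervals of the reads, which cover counting error only, were 28.6 to 54.5 in WT and 2.202 to 13.1 in the Hoxd-/- library. Of the 9 members measured in the vas deferens it was the only 1 to separate the Hoxd-null pair by 2-fold, as did 0.622% of measured genes in the lower direction. Without the Hoxa-/- library 2 members did so. None of the 9 separated the Hoxa-null pair, as 4.07% of measured genes did in the higher and 2.29% in the lower direction. With the WT, the Hoxa-/- or the Hoxa+/-d-/- library left out, 1 of the 9 did. Shares of all measured genes were not counted with a library left out, so nothing is read from those counts. Within lane 2 alone, S100g in the Hoxd-/- library lay 2.53 and 2.58 log2 units below the Hoxa-/- and Hoxa-/-d+/- libraries.

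Slc47a1 (Gene ID 67473, chromosome 11, start 61156902) encodes MATE1, which exports organic cations in exchange for protons and is best known in kidney and liver. It held 19.1 reads in the WT, 11.96 in the Hoxa-/-, 2 in the Hoxd-/-, 9.92 in the Hoxa-/-d+/- uterus and 11 in the oviduct, and stood at the floor, at 0 or 1 read, in the Hoxa+/-d-/- uterus. The Hoxd-/- library was 8.73-fold below WT and the Hoxa+/-d-/- at least 7.62-fold below it if 3 reads are allowed there. Poisson intervals, for counting error only, were 11.5 to 29.7 reads in WT and 0.242 to 7.22 in the Hoxd-/- library. Slc47a1 passed the minimum of 20 normalised reads through the WT uterus alone, where it is highest, which favours its lower calls. Without it 6, 4, 5 and 7 of 9 members were called in the mutant uteri, and 3 separated the Hoxd-null pair. The nearest measured gene on one side, the close relative Slc47a2, was lower in all 4 mutant uteri, at -2.28, -1.87, -1.10 and -1.46. Reads shared between such relatives could not be separated here. In the vas deferens Slc47a1 was within 2-fold of WT, from 0.12 to 0.93.

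**Figure D4:**
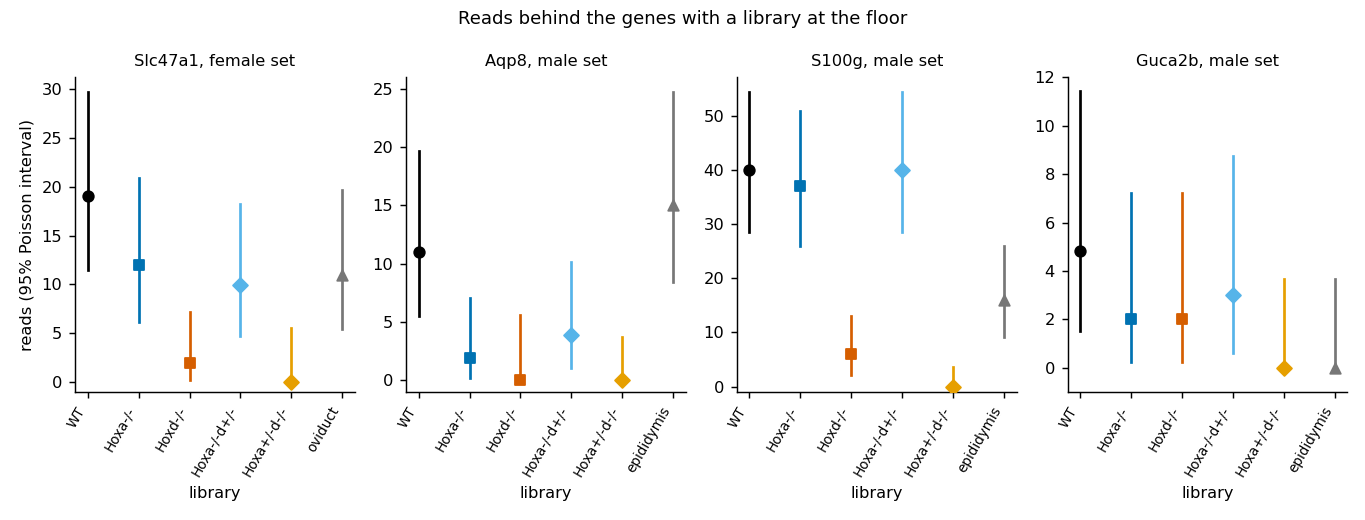
Reads in each library for the 4 cases in which a library at the floor made reads readable, with exact 95% Poisson intervals as lines. S100g keeps 37 to 40 reads in the WT and Hoxa-null vasa deferentia against 6 and 0 in the Hoxd-null pair, and Guca2b has at most 4.84 reads in any male library.

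At 2-fold, 4 of the 9 members measured in the vas deferens were called in the Hoxa-/- (2 higher, 2 lower), 3 in the Hoxd-/- (0 and 3), 4 in the Hoxa-/-d+/- (1 and 3) and 6 in the Hoxa+/-d-/- library (2 and 4). The shares over all 16891 measured genes were 19.2%, 8.23%, 22.3% and 12.9%, made up of 10.8%, 3.40%, 13.9% and 7.65% higher and 8.42%, 4.83%, 8.37% and 5.28% lower. Guca2b did not count as measured there, since its reads were 4.84 in WT, 2 in the Hoxa-/- and the Hoxd-/-, 3 in the Hoxa-/-d+/- and 0 in the Hoxa+/-d-/- library and the epididymis, and no fold is given. Aqp8 was also sparse, with 11 reads in WT, 1.88 in the Hoxa-/-, 3.9 in the Hoxa-/-d+/- and 15 in the epididymis. It stood at the floor in both Hoxd-null libraries, at least 2.64-fold below WT in the Hoxd-/- and at least 1.998-fold in the Hoxa+/-d-/-. It passed the minimum through the epididymis alone, and without it 3, 2, 3 and 5 of 8 members were called in the mutants (2, 0, 1 and 2 higher, 1, 2, 2 and 3 lower). Aqp5 lay below WT in all 4 mutants, at -0.63, -0.80, -1.08 and -1.99, and at 0.95 in the epididymis.

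**Figure D5:**
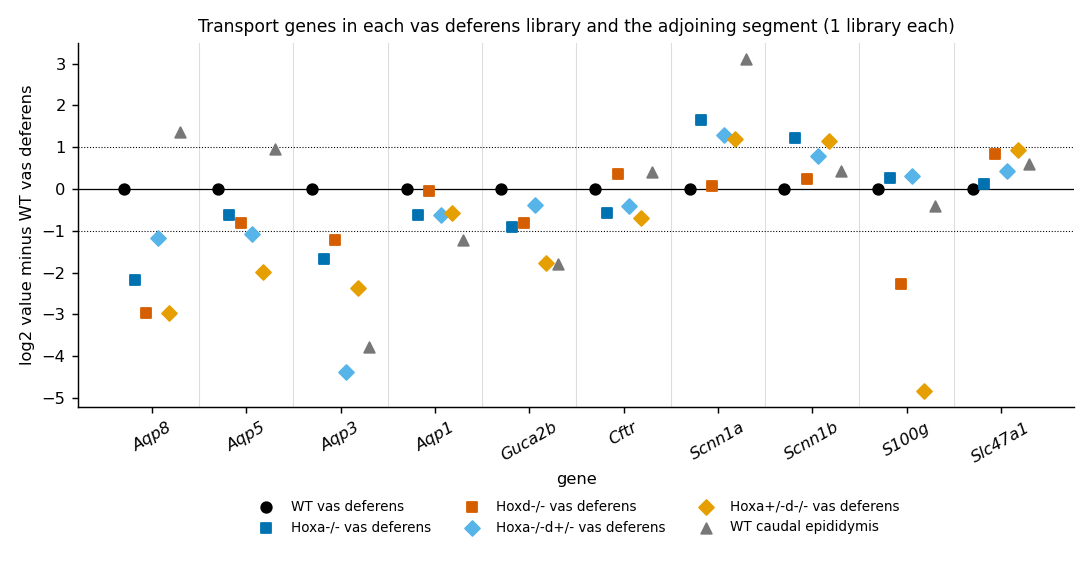
Each point is 1 pooled male library, plotted as its log2 value minus the WT vas deferens for each of the 10 genes, with dotted lines at 2-fold. S100g is the gene with the Hoxd-null pair (orange) at -2.26 and -4.82 and both Hoxa-null libraries (blue) at 0.26 and 0.31; Guca2b is drawn although it did not count as measured.

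Genes of the uterine glands were also read in the WT vas deferens. Prss28, Prss29 and Spink3 held 43.2, 171 and 46 reads in the WT vas deferens, which shared lane 1 with the WT uterus, and between 0 and 3 reads in every other male library. Prss28 held 6640 reads in the WT uterus, 30 in the Hoxa-/- uterus of the same lane, 6 in the oviduct and 0 or 1 in the 3 uteri of lane 2. Aqp8 and Guca2b, both highest in the WT uterus among the female libraries, had 11 and 4.84 reads in the WT vas deferens, and the share of these that belongs to that tissue was not tested. Among the 3 uteri of lane 2, differences of the Hoxd-/- and Hoxa+/-d-/- uterus from the Hoxa-/-d+/- uterus were -1.87 and -2.17 for Aqp8, -4.55 and -3.41 for Guca2b, -2.16 and -2.66 for S100g and -2.05 and -3.31 for Slc47a1.

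The adjoining WT segments gave further reference points. In the oviduct 5 of 10 members were at least 2-fold below the WT uterus and none above it, where 28.1% of all measured genes were called in either direction. These were Aqp8, Aqp5, Scnn1b, S100g and Slc47a1, the last at -1.09. In the epididymis 4 of 9 were called, where 28.9% of all measured genes were. Aqp8, at 1.38, and Scnn1a were above the WT vas deferens and Aqp3 and Aqp1 below it.

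The compound mutants were also set against the single mutant of the same null cluster. Between the Hoxa-/-d+/- and the Hoxa-/- uterus 4 of 10 were called, with Scnn1a and S100g higher and Aqp8 and Cftr lower, beside 11.6% of all measured genes. Between the Hoxa+/-d-/- and the Hoxd-/- uterus 3 were called, with Aqp3 and Guca2b higher and Slc47a1 lower, beside 9.71%. In the vas deferens 1 of 9 was called on the Hoxa-/- background, Aqp3, beside 9.39% of all measured genes. On the Hoxd-/- background 5 were called, beside 11.8%, with Scnn1a higher at 1.11 and Aqp5, Aqp3, Cftr and S100g lower. For S100g the Hoxa+/-d-/- library was at the floor. The Hoxa+/-d-/- vas deferens was sequenced in run 136 and the Hoxd-/- in run 134, and the Hoxa-/-d+/- and Hoxa-/- uterus in lanes 2 and 1. In these comparisons the further mutant copy and the run or lane cannot be told apart.

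The other genes of these pathways come from fixed lists. Their counts leave the 10 genes out and are read beside 5.98%, 6.20%, 8.56% and 7.94% of all measured genes higher and 7.24%, 5.82%, 6.90% and 6.37% lower. Of the 6 further aquaporin rows measured, 2, 1, 1 and 1 were lower and 0, 1, 0 and 2 higher in that order. Aqp2, the vasopressin-regulated channel of the kidney, was at -1.54, -2.20, -1.72 and -0.998. Aqp4, the main water channel of brain glia, was at 0.15, -0.94, 0.68 and 2.65. Aqp11, an intracellular aquaporin, was at -1.51, -0.81, -0.07 and -1.94.

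Of 15 further genes of ENaC and its regulators, 2, 0, 2 and 2 were lower and 0, 0, 2 and 0 higher. Hsd11b2, which inactivates glucocorticoids and so keeps the mineralocorticoid receptor free for aldosterone, stood at -1.42, 0.39, -3.08 and -2.62. Nr3c2, the gene of that receptor, was at 0.56, -0.80, 1.40 and 0.61. Tmprss4, a membrane serine protease, was at -0.17, -0.77, -1.28 and 0.18.

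Of 21 further chloride and bicarbonate genes, 6, 3, 5 and 1 were lower and 1, 1, 0 and 6 higher. Car4, a membrane-bound carbonic anhydrase, was at -0.93, -2.23, -1.79 and -3.01, and at -5.46 in the oviduct. Slc26a4, the anion exchanger pendrin, was at -1.32, 0.89, -1.67 and 2.74 and Clca4 at -1.61, 1.69, 0.32 and 4.205, so that both were above WT in the Hoxa+/-d-/- uterus. Slc9a2, a sodium-proton exchanger, was at -2.55, -1.84, -0.17 and 0.38.

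Of 8 further guanylin pathway genes, 2, 1, 1 and 1 were lower and 0, 0, 0 and 1 higher. Npr3, the natriuretic peptide clearance receptor, was at -1.59, 0.29, -0.20 and 1.20, and Prkg2, a cyclic GMP-dependent kinase, at -0.11, -0.59, 0.60 and -1.07. Gucy2c, which encodes guanylate cyclase C and is named for that role rather than for its values, was at 0.14, 0.11, 0.26 and 0.06, so that the receptor gene stayed level where Guca2b was lowest. Gucy2e, which is among the 8, had 3 reads in the WT uterus, too few for a fold, and without it 1, 0, 0 and 1 of 7 were lower and 0, 0, 0 and 1 higher.

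Of 14 genes of the sodium pump and its Fxyd subunits, 1, 0, 1 and 0 were lower and 0, 2, 2 and 1 higher. Atp12a, the nongastric proton-potassium pump, was at -2.91 and -2.34 in the Hoxa-null pair and -0.18 and 0.52 in the Hoxd-null pair.

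Of 14 further calcium genes, 1, 2, 3 and 1 were lower and 0, 1, 3 and 3 higher. Calb2, which encodes the calcium buffer calretinin, was lower in every mutant uterus, at -5.04, -1.97, -5.04 and -4.17. It stood at the floor in the Hoxa-/- library, at least 11.6-fold below its 30 reads in WT. The Hoxa-/-d+/- library lay only 0.001 log2 units above the Hoxa-/- library, so its value rests on very few reads as well. Calb2 counted as measured through the WT uterus alone, where it is highest, which favours its lower calls. Trpv6, the apical calcium entry channel, was at -0.98, -0.07, -2.36 and 1.17, and Trpv5, its close relative, at -0.28, 1.54, -1.82 and 3.39. Trpv5 had 3.22 reads in the WT uterus, so its differences rest on very few reads. S100g and Trpv6 lay on opposite sides of WT in the Hoxa+/-d-/- uterus.

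Of 12 further organic cation and drug transporters, 4, 2, 5 and 3 were lower and 0, 0, 1 and 0 higher. Abcb1b, a drug efflux pump, was at -0.27, -2.09, -0.91 and -1.48.

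Of 17 tight junction genes, 3, 2, 1 and 3 were lower and 0, 0, 1 and 0 higher. Cldn2, which forms a paracellular pore for sodium and water, was lower in all 4 mutant uteri, at -2.99, -1.50, -3.53 and -3.02. Cldn8, a sealing claudin, was at -1.46, -1.33, -0.95 and -2.72. Tight junction medians lay between -0.43 and 0.02.

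Steroid-related genes were examined because S100g is steroid-responsive. Of 16, 4 were lower in each mutant uterus and 1, 1, 0 and 3 higher. Their medians were 0.13, -0.02, -0.07 and -0.31. Those called higher were Ramp3 in the Hoxa-/- (1.57) and Hoxd-/- uterus (1.51), and C3 (1.22), Muc1 (1.12) and Lcn2 (1.78) in the Hoxa+/-d-/- uterus. The receptor genes Esr1 and Pgr, named for their role, were within 2-fold of WT in all 4, from -0.40 to 0.42. A further oestrogen receptor gene, Esr2, was at 0.98, -1.84, -0.58 and -0.09, and so was lower in the Hoxd-/- uterus. Cyp26a1, a retinoic acid-degrading enzyme induced by progesterone, was at -3.14, -3.26, -3.64 and -4.03. Areg, which encodes the growth factor amphiregulin, was at -3.94, -1.67, -2.20 and -3.58, and Ihh, an epithelial signal induced by progesterone, at -1.28, -1.24, -0.09 and -2.75. Calca, which encodes calcitonin and the peptide CGRP, was at -1.47, 0.44, -1.10 and -3.49.

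Among 9 measured genes of the uterine glands, 6, 5, 6 and 6 were lower, and 2, 0, 0 and 2 higher, with medians of -1.52, -1.03, -2.43 and -3.48. The higher ones were Klk1, a kallikrein, and Lif, a cytokine needed for implantation, in the Hoxa-/- uterus at 2.65 and 1.15 and in the Hoxa+/-d-/- uterus at 2.41 and 1.26. Spink3, a protease inhibitor, was at -7.09, -7.32, -6.84 and -12.1. Leukocyte markers were higher for 1, 7, 3 and 7 of 8 and adipocyte markers lower for 6, 2, 1 and 7 of 7. The part of gland, leukocyte or fat cells in the members' values was not tested.

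For each member the nearest measured gene on either side was taken, so genes that did not count as measured were passed over. These genes need not adjoin the member, and 1700045I19Rik lay 798148 bases from S100g. Of these 20 genes, 12 were within 2-fold of WT in all 4 mutant uteri and 8 were not. The same share over all measured genes was not counted, so nothing is read from it. Foxj3 and Hivep3, on either side of Guca2b, lay between -0.51 and 0.52 in the 4 mutant uteri. Aqp7 and Nol6, on either side of Aqp3, lay between -0.97 and 0.21, and Ctps2 beside S100g lay between -0.23 and 0.25. Lcmt1, on one side of Aqp8, stayed between -0.34 and -0.11, and Zkscan2, on the other, was at 1.13 in the Hoxa-/-d+/- uterus and within 2-fold elsewhere. Adcyap1r1 beside Aqp1 was at 2.63, 0.91, 2.73 and 1.84, and Wnt2 beside Cftr at -1.14, 0.24, -1.27 and 0.74. Rnf112 beside Slc47a1 was at 2.09 in the Hoxa-/-d+/- and 1700045I19Rik beside S100g at 1.74 in the Hoxa+/-d-/- uterus, both within 2-fold elsewhere. The remaining 3 past 2-fold were Aqp2 beside Aqp5, Scnn1g and Slc47a2, given above.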

How the data were processed

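RNA sequencing of 12 mouse libraries was used, 6 female and 6 male, each a pool of 3 animals. Per the labels, fresh tissue gave total RNA (Qiagen RNeasy Mini) for Illumina TruSeq libraries. The submitters' processing notes name TopHat and the build mm9. How reads were counted and normalised, and whether strand was used, is not given in the sources used here. The authors deposited 1 log2 value per gene and library, with each gene's median over the 6 libraries of its sex at 0, and read counts were not used here as such.

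In the deposited values, low genes lie on steps. These showed that, before centring, each library's reads had been scaled by a factor of its own and values under 1 normalised read set to 1, and they gave the relative depth. Of the low values tested, 66.4% (female) and 64.2% (male) were whole reads within 0.01 of a read, and 88.8% and 87.6% were multiples of a fiftieth part of a read. Reads are printed only for genes with a library at the floor, since other genes leave a common factor open. No pseudocount was added, and count tests were not run because there is 1 library per group.

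Genes were taken as measured if any library had 20 or more normalised reads, or if the level was not readable. Library medians over measured genes were set equal, moving values by at most 0.0016 (female) and 0.0067 (male). Differences were taken within a sex, and a gene was called at 2-fold. The members, the 10 pathway lists, the 10 marker lists and the rule for named genes were chosen with earlier results of these data known. The rule took all 10 members, up to 4 measured genes per pathway list with the largest difference from WT in any mutant uterus, and the 3 measured genes nearest by root mean square difference to each member called in 2 or more mutant uteri. Some genes that the rule took are not reported here. Promoter sequences came from RefSeq on GRCm38.p6, in which 8 of the 10 members matched, and gene starts are those of the deposited files. The steps were also run on simulated reads built with the same scaling, floor and parts of a read. That run cannot show that the deposited values were made in this way, and its outcome is not reported here. Alternatives were folds of 1.5 and 3, unshifted values, another centring, no minimum or a minimum of 50, other references, and each library left out of the pair comparisons. Python 3.11.15, numpy 2.4.6, pandas 2.3.3 and scipy 1.17.1 were used.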

Additional observations from a re-analysis of the deposited data

Results flagged for a closer look

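The 3 genes below lay on one side of WT in all 4 mutant uteri and on the other side in all 4 mutant vasa deferentia. The difference between the tissues was not tested, since each group is 1 library. The 4 differences of a tissue share 1 WT library, so they are not separate observations. How many of all measured genes have this pattern was not counted, so nothing is read from the number found. Aqp3 had a median of 4.33 over the mutant uteri and -2.02 over the mutant vasa deferentia, and every one of these 8 values passed 2-fold. Slc47a1 had a median of -2.10 in the uterus and 0.63 in the vas deferens, where no mutant passed 2-fold. Aqp1 had medians of 0.29 and -0.60, and none of its 8 values passed 2-fold. At 0.01 in the Hoxa-/- uterus and -0.05 in the Hoxd-/- vas deferens, Aqp1 was level with WT.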

How the results depend on the processing

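No paired analysis was possible because each group is 1 library and the labels carry no replicate numbers. All these results come from single pools, so depth limits the low genes and nothing measures the spread between animals. For the alternative settings below, shares over all measured genes were not counted, so no excess of members is read from their counts.

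Leaving out the shift of library medians, centring on genes with no library at the floor, and using no minimum level left each of the 76 member differences on its side of 2-fold, and moved the 98 counts and list medians by at most 1.5 times (counts) or by less than 1 log2 unit (medians). With no minimum level Guca2b joined the vas deferens members, and 7 were called in the Hoxa+/-d-/- library and 5 in the epididymis. Leaving Slc47a1 out of the uterine and Aqp8 out of the vas deferens counts, chosen after seeing the data, also kept them within 1.5 times. With a minimum of 50 normalised reads, 1 member was called in the Hoxd-/- vas deferens, 0 separated the Hoxd-null pair there, and the gland median of the Hoxa-/- vas deferens was -0.030. S100g and Aqp8, with at most 35.3 and 20.3 normalised reads in any male library, were removed by this minimum. Their values did not change but were no longer counted.

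At 1.5-fold, 7 members were called between the Hoxa-/-d+/- and Hoxa-/- uterus, 7 between the Hoxa+/-d-/- and Hoxd-/- uterus, 8 in the oviduct, 5 in the Hoxd-/- vas deferens and 2 between the Hoxa-/-d+/- and Hoxa-/- vas deferens, and 2 separated the Hoxd-null pair of the vas deferens. At 3-fold, 2 were called in the Hoxa-/- and 5 in the Hoxa+/-d-/- uterus, 1 in each comparison of a compound with a single mutant uterus, 2 in the oviduct, 1 in the Hoxa-/-d+/- vas deferens, 1 between the Hoxa+/-d-/- and Hoxd-/- vas deferens and 2 in the epididymis. At neither fold was the share of all measured genes counted, so these counts show only how the calls depend on the fold.

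With the mean of the 3 libraries intact for the cluster as reference, in place of WT, the sign turned for Aqp8 (2.80), Guca2b (1.46) and S100g (0.46) in the Hoxa-/- uterus, Guca2b (2.28) and Slc47a1 (1.43) in the Hoxa-/-d+/- uterus, Aqp3 in the Hoxd-/- (-2.16) and Hoxa+/-d-/- uterus (-0.068), Aqp3 in the Hoxd-/- (0.79) and Aqp8 in the Hoxa-/-d+/- vas deferens (0.79). Only differences of at least 2-fold from WT were screened for a turned sign, so smaller ones that turned are not listed. That reference contains mutants of the other cluster, whose values enter it. Members called then numbered 2 in the Hoxa-/-, 2 in the Hoxa-/-d+/- and 3 in the Hoxa+/-d-/- vas deferens. Gland medians became -0.036, -0.67 and -2.29 in the Hoxa-/-, Hoxa-/-d+/- and Hoxa+/-d-/- uterus and -0.19 in the Hoxa-/- vas deferens, and the aquaporin median of the Hoxa-/-d+/- vas deferens became 0.64.

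With a library of the same lane as reference, the sign turned for Aqp3 in the Hoxd-/- (-3.73) and Hoxa+/-d-/- uterus (-1.64), Aqp5 in the latter (0.43), Aqp8 (1.87), Guca2b (4.55) and Slc47a1 (2.05) in the Hoxa-/-d+/- uterus, Aqp8 in the Hoxa-/- (0.78) and Hoxa-/-d+/- (1.78) and Aqp3 in the Hoxd-/- vas deferens (0.44). These references are mutants of the other cluster too. Smaller differences were again not screened, and some of them turned. In the Hoxd-/- uterus Aqp5 (1.03) and Cftr (1.44) lay above this reference although they lay below WT. The gland median became 0.26, -0.26 and -0.72 in the Hoxd-/-, Hoxa-/-d+/- and Hoxa+/-d-/- uterus and 0.43 in the Hoxa-/- vas deferens, the organic cation median of the Hoxa-/-d+/- uterus 0.18, and 2 members were called in the Hoxa-/- vas deferens.

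Leaving out each library in turn gave 1 to 5 members separating the Hoxa-null pair and 4 to 5 the Hoxd-null pair in the uterus, and 0 to 1 and 1 to 2 in the vas deferens. Separation becomes easier for every gene when a library is left out, and the shares of all measured genes were not counted.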
